A study of Mus musculus with 6 samples.

Results

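The Krüppel-like factor (KLF) genes Klf2, Klf3, Klf4, Klf5, Klf6, Klf9, Klf10 and Klf13 were followed across 6 clones of mouse induced pluripotent stem cells (iPSCs). They are 8 of 18193 genes that have a probe set of their own on the array, and every probe set that the array annotation assigned to a single gene of these 8 was taken, 29 probe sets in all. The clones came from mouse embryonic fibroblasts that carried a Nanog-GFP-IRES-Puro transgene, a reporter of the pluripotency gene Nanog, after retroviral transfer of Oct3/4, Sox2, Klf4 and c-Myc. They were grown on SNL feeder cells in medium with serum and leukemia inhibitory factor (LIF), and each clone gave 1 array. Clones 1, 2 and 3, the (−)/(+) iPSCs, were reprogrammed in the absence of 3i and met it only after their colonies had been picked. Clones 4, 5 and 6, the (+)/(+) iPSCs, were given 3i from the reprogramming period onward. 3i is a mixture of CHIR99021, PD184352 and SU5402, which inhibit GSK3, MEK and the FGF receptor, and all 6 clones were maintained in it, so that the comparison concerns its presence during reprogramming. The numbers given below are MAS 5.0 signals, a linear measure of brightness per probe set, and they cannot be compared between probe sets.

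KLF proteins are transcription factors that hold zinc fingers near their C terminus and bind GC boxes and CACCC boxes in promoters and enhancers. Klf2, Klf4 and Klf5 belong to the activators, take part in the self-renewal of mouse embryonic stem cells and can stand in for each other there, and LIF acts on Klf4 through Stat3. Other members act mainly as repressors, Klf3 through the corepressor Ctbp and Klf9, Klf10 and Klf13 through Sin3a.

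Klf6 was the only member whose probe sets passed the test, and it was higher in the (+)/(+) iPSCs. The test was limma on log2(signal + 16), fitted on all 22518 probe sets that were bright enough, with a call at a Benjamini-Hochberg adjusted p under 0.05. Of the 29 probe sets of the members, 25 were tested, and each of the 8 genes had a tested probe set. Among those 25, 3 were called higher, 0 were called lower and 22 were not called, with 11 at an unadjusted p under 0.05. All 3 calls were probe sets of Klf6. Over all tested probe sets, 3.12% were called (1.35% higher and 1.77% lower), and 21.2% had an unadjusted p under 0.05. The groups did not overlap in 10 of the 25, 8 with the (+)/(+) clones above and 2 with them below, which is 40.0% of the members' probe sets against 27.1% of all tested. Probe sets of a gene measure the same transcripts, so these shares do not count independent genes. By the brightest probe set of each gene, 1 member of 8 was higher and 0 were lower, and the median log2 fold change was -0.03, against -0.05 over all tested probe sets.

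**Figure D1:**
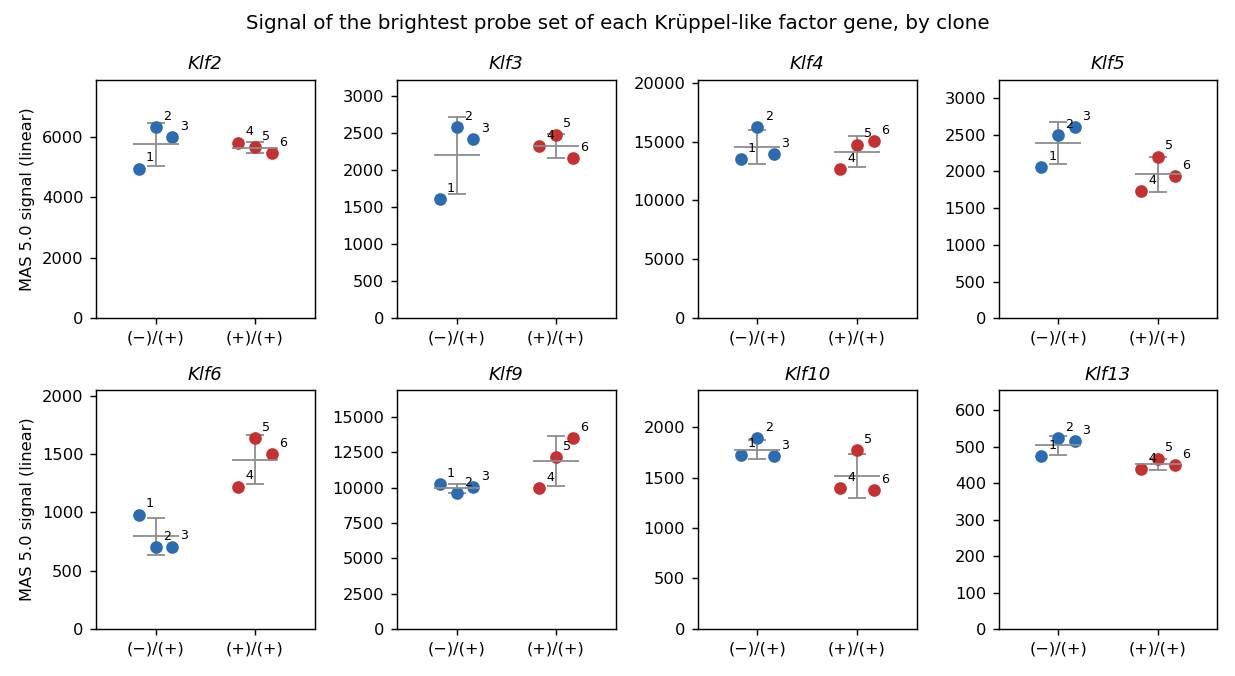
Signal of the brightest probe set of each KLF gene (y axis, MAS 5.0 signal on a linear scale starting at 0) in the (−)/(+) clones 1 to 3 (blue) and the (+)/(+) clones 4 to 6 (red). Each point is 1 clone with its number, and the bars give the mean and SD of 3 clones. The groups stand apart in Klf6, where the (+)/(+) clones lie at 1220 to 1636 and the (−)/(+) clones at 700 to 980, and in Klf13, by a small margin.

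The arrays were alike in overall level but not in every respect. The authors had scaled them to the same trimmed mean, while the median signal was 74.3 to 75.7 in the (−)/(+) clones and 64.1 to 70.2 in the (+)/(+) clones. When the arrays were scaled to a common median, the median log2 fold change over all tested probe sets moved from -0.05 to 0.10, a shift of 0.15, and the share of calls that were higher went from 43.4% to 79.4%. All 10 markers of pluripotent cells passed the brightness filter, with 1 called higher (Fbxo15) and 0 called lower. Their log2 fold changes ran from -0.66 (Dnmt3l) to 0.64 (Fbxo15), and their summed signal, which the brightest probe sets dominate, was 108230 to 113531 in the (−)/(+) clones and 119646 to 128188 in the (+)/(+) clones. Markers of fibroblasts and feeder cells were lower in the (+)/(+) iPSCs in 6 of 16 tested genes, and 0 were higher. Their 19 measured genes summed to 31008 to 41197 in the (−)/(+) clones and 20472 to 23854 in the (+)/(+) clones, and no listed marker was at 0. The brightest probe sets dominate this sum too. Vim had means of 12897 and 7012, and Fn1, which was not called, of 9808 and 7443. Col1a1, Twist2 and Lum were too dim to be tested. Markers of 2-cell embryos moved the other way: 4 of 5 tested genes were higher, and the list summed to 9738 to 11828 against 24531 to 28961. Eif1a, which was not called, was the brightest of that list in the (−)/(+) clones, with means of 6617 and 8316. Each array held the RNA of a whole culture, in which more cells of a type and more RNA per cell cannot be told apart.

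Klf6, a widely expressed activator that many stimuli induce, lies at chr13:5861489-5870393 in the RefSeq annotation of mouse build GRCm38.p6. The 250 bases before its start, on the plus strand at chr13:5861239-5861488, are shown because Klf6 was the only member with called probe sets. The boxes that KLF proteins bind are in capitals (CACCC or GGGTG for a CACCC box, GGGCGG or CCGCCC for a GC box). Each pair gives the 2 strands of its box.
Klf6: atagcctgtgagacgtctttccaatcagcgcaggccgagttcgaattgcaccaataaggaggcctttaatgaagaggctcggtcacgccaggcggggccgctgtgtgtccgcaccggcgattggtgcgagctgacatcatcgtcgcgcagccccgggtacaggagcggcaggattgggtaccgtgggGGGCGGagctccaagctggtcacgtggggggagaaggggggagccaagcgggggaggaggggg
This stretch held 1 GC box and 0 CACCC boxes, at a GC content of 64.8%. Of 32851 mouse promoters of the same length in RefSeq, 32.7% held a GC box and 52.0% a CACCC box, and the median GC content was 52.4%. A match of letters says nothing on whether a protein is bound there.

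The brightest Klf6 probe set, 1433508_at, had signals of 980, 700 and 705 in clones 1, 2 and 3 and of 1220, 1636 and 1499 in clones 4, 5 and 6. Every (+)/(+) clone was above every (−)/(+) clone, and clone 1 was the nearest of its group to the other. The means were 795 ± 160 and 1452 ± 212 (SD, n = 3 each), a log2 fold change of 0.86 (95% interval 0.50 to 1.22) or 1.82-fold (1.42 to 2.34), with an adjusted p of 0.026 from limma.

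Both further calls pointed the same way. 1427742_a_at had 903, 535 and 694 in the (−)/(+) clones, against 1247, 1382 and 1170 in the (+)/(+) clones, a log2 fold change of 0.85 (adjusted p = 0.035). 1447448_s_at had 536, 370 and 403 against 760, 788 and 744, a log2 fold change of 0.80 (adjusted p = 0.027). In both, the groups did not overlap and clone 1 was again the highest of its group. 1418280_at did not pass, at 243, 173 and 162 against 310, 306 and 325 (log2 fold change 0.68, adjusted p = 0.065), and its groups did not overlap either. In the dimmest, 1459718_x_at, clone 2 (132) was above clone 4 (101), and the log2 fold change of 0.63 had an adjusted p of 0.22. Thus 5 of 5 Klf6 probe sets had a positive log2 fold change. In 4 of 5 the groups did not overlap, against 27.1% of all tested probe sets in either direction. These probe sets measure the same gene, and 3 against 3 clones cannot give an exact permutation p under 0.1 for any of them.

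The call of Klf6 was lost when some single clones were left out, while its estimate stayed between 0.77 and 1.02. With 1433508_at, the adjusted p from limma was 0.057 without clone 2, 0.095 without clone 3, 0.092 without clone 5 and 0.13 without clone 6, at log2 fold changes of 0.78, 0.79, 0.77 and 0.83, whereas leaving out clone 1 gave 0.0070 and leaving out clone 4 gave 0.040. The number of the members' probe sets called higher went from 3 to 0 without clone 2, 3, 5 or 6, and to 1 without clone 4. By the sums given above, which their brightest probe sets dominate, the fibroblast and feeder markers and the 2-cell markers separated the same groups. Their part in the Klf6 difference was not tested.

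**Figure D2:**
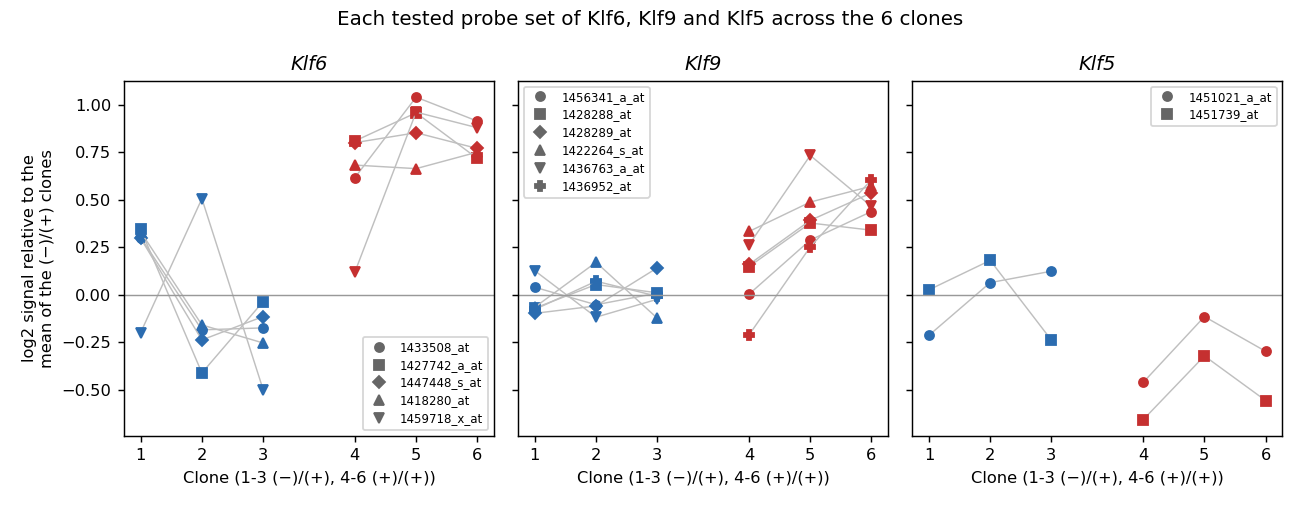
Every tested probe set of Klf6, Klf9 and Klf5 (symbols) in each clone, against clone number (x axis). The y axis is the log2 ratio of the signal to the mean signal of the (−)/(+) clones, with nothing added to the signal. Lines join the values of a probe set within a group and have no order in time. The (+)/(+) values of Klf6 and Klf9 lie mostly above 0 and those of Klf5 below it, and Klf6 alone had called probe sets.

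Across the 6 clones, the tested genes whose log2 signal followed that of Klf6 most closely, of 11169 compared, were Chmp3 (Pearson r = 0.995), Rps6ka5 (r = 0.994) and Morc3 (r = 0.993). These are descriptions over 6 clones that share 2 groups, and the highest of many values. Chmp3, a subunit of the ESCRT machinery that shapes endosomal membranes, had 584, 452 and 436 in the (−)/(+) clones, against 691, 810 and 797 in the (+)/(+) clones (log2 fold change 0.63, adjusted p = 0.049). As in Klf6, clones 4, 5 and 6 were above the others and clone 1 was the highest of its group. Rps6ka5, a kinase that acts downstream of ERK and p38, had a log2 fold change of 0.49 (adjusted p = 0.10), and Morc3, a nuclear ATPase, of 0.20 (adjusted p = 0.22).

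The activators of naive pluripotency, Klf2, Klf4 and Klf5, had 0 called probe sets of 5 tested. Klf2 and Klf4 are shown with the 250 bases before their starts (Klf2 on the plus strand at chr8:72318812-72319061, Klf4 on the minus strand at chr4:55532476-55532725, both printed in the direction of transcription), as the members of the pluripotency network whose values lay closest to no difference.
Klf2: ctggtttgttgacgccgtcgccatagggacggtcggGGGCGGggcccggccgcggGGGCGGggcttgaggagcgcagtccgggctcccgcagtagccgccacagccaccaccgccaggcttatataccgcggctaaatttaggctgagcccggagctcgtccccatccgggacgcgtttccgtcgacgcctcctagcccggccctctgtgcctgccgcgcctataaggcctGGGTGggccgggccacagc
Klf4: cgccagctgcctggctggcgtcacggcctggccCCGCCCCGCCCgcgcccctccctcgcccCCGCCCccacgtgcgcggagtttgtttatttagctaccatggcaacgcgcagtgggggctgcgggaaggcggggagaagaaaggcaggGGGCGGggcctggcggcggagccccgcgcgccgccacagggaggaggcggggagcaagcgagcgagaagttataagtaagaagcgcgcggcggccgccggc
The Klf2 stretch held 1 CACCC box and 2 GC boxes, and the Klf4 stretch 0 and 4, at GC contents of 71.2% and 74.0%. Promoters of 6 of the 8 members matched the RefSeq table; those of Klf5 and Klf10 did not.

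Klf2 (chr8:72319062-72321654), which has a single probe set here, had signals of 4954, 6314 and 5981 in clones 1, 2 and 3 and of 5812, 5666 and 5459 in clones 4, 5 and 6. All (+)/(+) clones fell inside the range of the (−)/(+) clones. The means were 5750 ± 709 and 5646 ± 177 (SD, n = 3 each), and the log2 fold change of -0.02 (-0.25 to 0.21, adjusted p = 0.94) became 0.14 when arrays were scaled to a common median. The interval, which holds for the authors' scaling with no further adjustment, leaves out changes beyond 0.840-fold and 1.16-fold. Genes of chromosome 8 were shifted up in clone 4, by a median of 0.41 on the log2 scale over 489 probe sets, whereas Klf2 stood 0.02 above its own median over clones there. With that shift taken away from each clone, the log2 fold change of Klf2 was -0.16 (adjusted p = 0.49).

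Klf4 (chr4:55527137-55532475) is both an endogenous gene of the network and a reprogramming transgene of every clone. The annotation gives no probe positions, so these signals alone cannot tell transcripts of the gene from any of the retrovirus. Its brighter probe set, 1417394_at, had 13514, 16201 and 13957 in the (−)/(+) clones, against 12675, 14741 and 15049 in the (+)/(+) clones. The groups overlapped, with clone 4 the lowest of all and clone 2 the highest. The means of 14557 ± 1441 and 14155 ± 1291 (SD, n = 3 each) gave a log2 fold change of -0.04 (-0.26 to 0.18, adjusted p = 0.85), which was 0.12 after scaling to a common median. 1417395_at had 3990, 4965 and 4227 against 3791, 4723 and 4557, with a log2 fold change of -0.01 (-0.28 to 0.25, adjusted p = 0.96). The clones kept nearly the same order in both probe sets, clone 2 highest and clone 4 lowest.

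Klf5 (chr14:99298691-99313412) was the activator with the lowest estimates, and neither tested probe set passed. 1451739_at had 644, 717 and 536 in the (−)/(+) clones, against 401, 506 and 430 in the (+)/(+) clones, and the groups did not overlap. Its means were 632 ± 91.3 and 446 ± 53.9 (SD, n = 3 each), with a log2 fold change of -0.49 (-0.83 to -0.15) or 0.714-fold, and an adjusted p of 0.11 from limma. The brighter 1451021_a_at had 2058, 2494 and 2600 against 1733, 2203 and 1941, where clone 5 was above clone 1. Its log2 fold change was -0.28 (-0.57 to 0.01, adjusted p = 0.24). The estimates were below 0 in both probe sets also after quantile normalization (-0.42 and -0.28) and after scaling to a common median (-0.33 and -0.12). As the mean of all 3 Klf5 probe sets, the dim one included, the log2 fold change was -0.03 (adjusted p = 0.94).

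Klf9, a repressor known as a target of glucocorticoid and thyroid hormone signalling, lies at chr19:23141226-23168129. Its upstream 250 bases (plus strand, chr19:23140976-23141225) are given because all 6 of its tested probe sets had a positive log2 fold change.
Klf9: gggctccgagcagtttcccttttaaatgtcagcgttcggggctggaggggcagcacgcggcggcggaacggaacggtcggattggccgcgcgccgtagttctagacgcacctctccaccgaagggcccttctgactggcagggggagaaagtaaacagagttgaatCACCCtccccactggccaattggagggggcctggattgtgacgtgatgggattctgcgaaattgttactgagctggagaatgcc
They held 1 CACCC box and 0 GC boxes at a GC content of 59.6%. None of the 6 tested Klf9 probe sets was called with limma, 5 had an unadjusted p under 0.05, and the log2 fold changes lay between 0.21 and 0.49 with a median of 0.33. The (+)/(+) clones were all above the (−)/(+) clones in 4 of the 6. Over all tested probe sets, 21.2% had an unadjusted p under 0.05, and in 27.1% the groups did not overlap in either direction. The 6 probe sets measure 1 gene on the same arrays, so these counts are not independent.

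The brightest Klf9 probe set, 1456341_a_at, had 10246, 9614 and 10030 in the (−)/(+) clones, against 9992, 12173 and 13509 in the (+)/(+) clones. Clone 4 fell among the (−)/(+) clones, while clones 5 and 6 were above all others. The means of 9963 ± 321 and 11892 ± 1775 (SD, n = 3 each) gave a log2 fold change of 0.24 (0.00 to 0.48, adjusted p = 0.23). 1422264_s_at had 1119, 1318 and 1075 against 1475, 1642 and 1740, a log2 fold change of 0.46 (0.19 to 0.74, adjusted p = 0.069) or 1.38-fold. 1436763_a_at had 1124, 949 and 1013 against 1236, 1712 and 1421, a log2 fold change of 0.49 (0.18 to 0.80, adjusted p = 0.085) or 1.40-fold. In both, the groups did not overlap, and clone 4 was the lowest of its group, as it was in 1428288_at (7626 against 8940 and 8709) and 1428289_at (5934 against 6968 and 7704). The adjusted p of those was 0.11 and 0.10. The dimmest, 1436952_at, ran from 203 to 225 in the (−)/(+) clones and from 185 to 326 in the (+)/(+) clones (log2 fold change 0.21, adjusted p = 0.58). The calls turned with the processing: 4 Klf9 probe sets, 1428288_at, 1428289_at, 1422264_s_at and 1436763_a_at, passed when arrays were scaled to a common median (adjusted p from 0.021 to 0.033), and the same 4 with arrayWeights (0.010 to 0.046), which gives less weight to arrays that vary more.

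Klf10, an early gene of TGF-β signalling, and Klf13 were measured by 1 and 2 tested probe sets, and 0 of these passed. Klf10 (chr15:38291464-38300711) had 1728, 1892 and 1716 in the (−)/(+) clones, against 1400, 1771 and 1376 in the (+)/(+) clones. Clones 4 and 6 were the lowest of the 6, and clone 5 lay inside the other group. The means were 1779 ± 98.5 and 1516 ± 221 (SD, n = 3 each), with a log2 fold change of -0.24 (-0.51 to 0.04, adjusted p = 0.31). Klf13 (chr7:63886351-63938915) had 474, 524 and 515 against 439, 468 and 449 in 1436316_at, with groups that did not overlap by a narrow margin. That log2 fold change was -0.15 (-0.43 to 0.13, adjusted p = 0.52), and it was 0.00 after scaling to a common median. The second Klf13 probe set, 1432543_a_at, had 300, 345 and 322 against 274, 364 and 381 and a log2 fold change of 0.06 (adjusted p = 0.86), so the probe sets of Klf13 differed in sign.

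Klf3 (chr5:64803521-64832901), the repressor that binds Ctbp, had 6 tested probe sets, with log2 fold changes from -0.08 to 0.11 and 0 at an unadjusted p under 0.05. Its brightest, 1454666_at, had 1605, 2571 and 2410 in the (−)/(+) clones, against 2318, 2475 and 2162 in the (+)/(+) clones. Clone 1 stood below the other 5 clones, which lay between 2162 and 2571. The means of 2196 ± 518 and 2319 ± 157 (SD, n = 3 each) gave a log2 fold change of 0.11 (-0.26 to 0.47, adjusted p = 0.75), which was -0.10 without clone 1. Clone 1 was the lowest of the 6 clones in 5 of the 6 tested Klf3 probe sets, a count made after the values had been seen, and in 15.3% of all tested probe sets. The 4 probe sets of the members that were too dim to be tested belong to Klf3, Klf5, Klf9 and Klf13, and their signals were between 1.44 and 71.7.

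**Figure D3:**
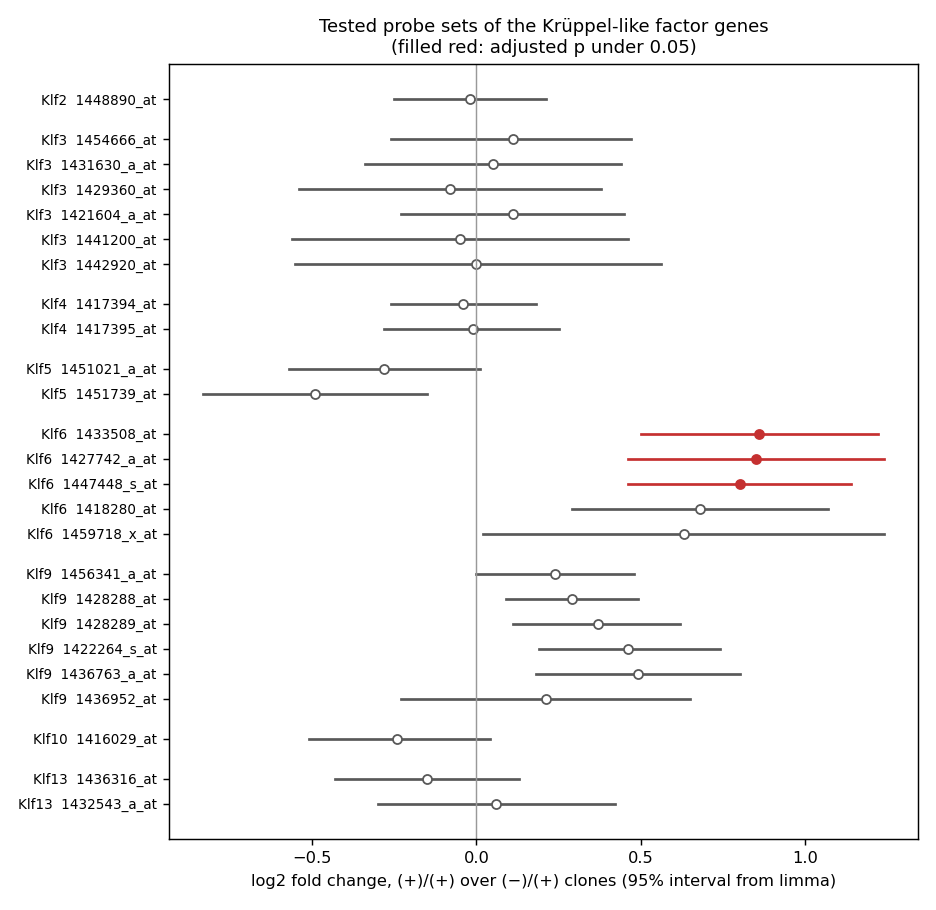
Log2 fold change of the 25 tested probe sets of the KLF genes, (+)/(+) over (−)/(+) clones (x axis, log2 units), with 95% intervals from limma (lines). Filled red points passed at an adjusted p under 0.05. The 3 red points are probe sets of Klf6 at 0.80 to 0.86. The 6 of Klf9 lie at 0.21 to 0.49, and the interval of the dimmest includes 0 (-0.23 to 0.65). The intervals of Klf2, Klf3, Klf4, Klf10 and Klf13 include 0. So does that of the brighter Klf5 probe set (-0.57 to 0.01), while the other runs from -0.83 to -0.15.

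The remaining KLF genes and the related Sp factors had 0 calls with limma. Of 10 other KLF genes, 8 had a probe set of their own and 6 were tested, with 2 at an unadjusted p under 0.05. Klf8 and Klf18 were not analysed here. Klf11, a relative of Klf10, had 868 ± 80.8 and 908 ± 83.5 (SD, n = 3 each, adjusted p = 0.81), and Klf16 had 568 ± 30.1 and 545 ± 26.7 (adjusted p = 0.83). In both, the groups overlapped. In Klf7, a close relative of Klf6, they did not. Its brightest probe set had 152, 138 and 140 in the (−)/(+) clones, against 233, 249 and 195 in the (+)/(+) clones, a log2 fold change of 0.59 (0.23 to 0.96, adjusted p = 0.078), while its other 2 tested probe sets gave -0.10 and -0.03. Of the Sp factors, which share the zinc fingers and the GC box, 6 were tested and 1 had an unadjusted p under 0.05. This was Sp3, with 5052 ± 305 and 6144 ± 528 (SD, n = 3 each, log2 fold change 0.28, adjusted p = 0.14). Sp1 had 5046 ± 321 and 5027 ± 88.2 (adjusted p = 0.99), and Sp4 had a log2 fold change of 0.40 (adjusted p = 0.29).

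Among genes whose products act on KLF proteins, 1 was called, Btrc. Of 8 tested ubiquitin ligase genes, 0 were higher and 1 was lower, and the list's median was 0.04. Btrc, the substrate receptor of an SCF ubiquitin ligase that recognises Klf4 after its phosphorylation by ERK, had 170, 316 and 291 in the (−)/(+) clones, against 125, 124 and 94.0 in the (+)/(+) clones. The groups did not overlap, and the log2 fold change was -1.04 (-1.56 to -0.52, adjusted p = 0.044). That call was lost when any clone other than clone 1 was left out, and in 7 other alternatives. Among the latter were the mean of each gene's probe sets and the limit to mean signals above 500. Under that limit Btrc was too dim to be tested. Of 11 tested corepressors and coactivators 0 were called, 4 had an unadjusted p under 0.05 and the median was -0.18. Ctbp2, the partner of Klf3, had 10222 ± 1420 and 9252 ± 899 (SD, n = 3 each, adjusted p = 0.52). Hdac1, a histone deacetylase of the Sin3a complex, had 8401 ± 398 and 8707 ± 711 (adjusted p = 0.79), and Hdac2 had 6235 ± 690 and 7263 ± 323 (adjusted p = 0.23). Sin3a itself had 1889 ± 52.4 and 1486 ± 178, with groups that did not overlap (log2 fold change -0.35, adjusted p = 0.13).

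Of 16 tested genes of the LIF and ERK pathways that feed into KLF genes, 0 were called, 6 had an unadjusted p under 0.05 and the median log2 fold change was -0.17. Socs3, a feedback inhibitor induced by Stat3, had 5143, 4273 and 4686 in the (−)/(+) clones, against 3717, 3788 and 3204 in the (+)/(+) clones. The groups did not overlap, and the log2 fold change of -0.40 had an adjusted p of 0.075. Map2k1, which encodes a MEK kinase, had 4501 ± 368 and 4375 ± 431 (SD, n = 3 each, adjusted p = 0.85), and Etv5, a factor that ERK signalling induces, had 3905 ± 1076 and 5321 ± 726 (adjusted p = 0.19). Stat3 had 812 ± 104 and 557 ± 20.5, and its groups did not overlap (log2 fold change -0.53, adjusted p = 0.062). Socs3 and Stat3 lie on chromosome 11. Its genes were shifted up in clone 1, by a median of 0.27 on the log2 scale over 782 probe sets. Clone 1 was the highest clone in both, at 5143 in Socs3 and 910 in Stat3. The part of that shift in these differences was not tested. In this list, 1 gene was called lower without clone 1, and 1 was called higher without clone 2.

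In the naive pluripotency network around the KLF genes, 1 of 15 tested genes was higher, 0 were lower and the median was -0.12. The higher gene was Fbxo15, which is expressed in embryonic stem cells and is a target of Oct3/4 and Sox2, with 13431, 11666 and 15361 in the (−)/(+) clones, against 20175, 20266 and 22092 in the (+)/(+) clones (log2 fold change 0.64, adjusted p = 0.014). The count of calls was 0 without clone 5 or clone 6 and 2 without clone 1. As with Klf3, clone 1 was the lowest of all clones in several of these genes, 7 of 15, against 15.3% of all tested probe sets. Clone 4 was the lowest in 4 of 15, against 23.7%. These counts too were made after the values had been seen. In a list of genes that respond early to TGF-β, as Klf10 does, which also holds the receptors Tgfbr1 and Tgfbr2, 1 of 10 tested was higher and 1 was lower, with a median of 0.06. Ccn2, a matricellular protein gene, had 3980 ± 495 and 6431 ± 496 (SD, n = 3 each, log2 fold change 0.69, adjusted p = 0.014). The lower gene was the receptor Tgfbr2, which had 492 ± 105 and 227 ± 39.3 (log2 fold change -1.06, adjusted p = 0.020). In both the groups did not overlap, and the 2 calls became 1 without clone 3 or clone 4 and 0 without clone 5 or clone 6. Of 13 tested immediate early genes, a class with which Klf6 and Klf10 share rapid induction, 0 were called, 3 had an unadjusted p under 0.05 and the median was -0.04. Egr1 had 12949 ± 336 and 11615 ± 1179 (SD, n = 3 each, adjusted p = 0.33), Fos had 8165 ± 189 and 7963 ± 835 (adjusted p = 0.84), and Dusp1 had 6007 ± 97.7 and 5570 ± 470 (adjusted p = 0.51).

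**Figure D4:**
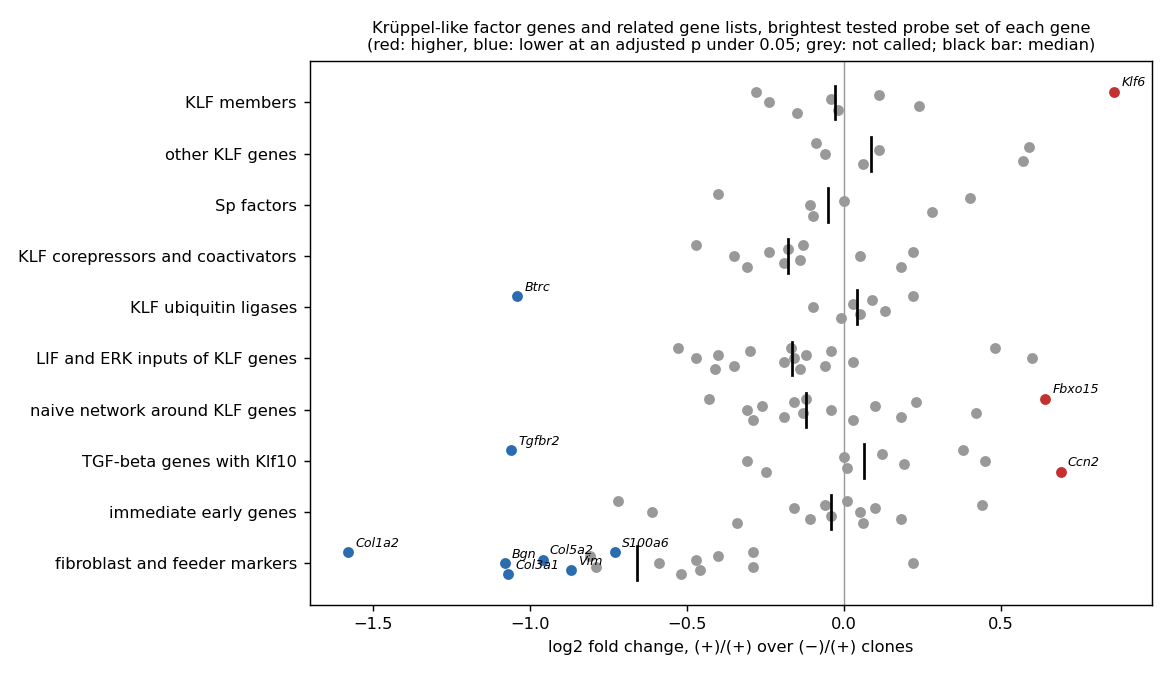
Log2 fold change, (+)/(+) over (−)/(+) clones (x axis, log2 units), of the brightest tested probe set of each gene in the KLF family and in related lists (rows). Red and blue points were called higher and lower at an adjusted p under 0.05, grey points were not called, and black bars are medians. Klf6 at 0.86 is the called KLF gene, and the fibroblast and feeder markers have the lowest median, -0.66.

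The fibroblast and feeder markers that were lower include Col1a2, a collagen of connective tissue, at 1746 ± 330 and 573 ± 114 (SD, n = 3 each, log2 fold change -1.58, adjusted p = 0.0043), Vim, an intermediate filament of mesenchymal cells, at 12897 ± 2320 and 7012 ± 642 (-0.87, adjusted p = 0.011), and Bgn, a matrix proteoglycan, at 1587 ± 312 and 740 ± 109 (-1.08, adjusted p = 0.011). S100a6, a calcium-binding protein gene, had 4583 ± 759 and 2734 ± 128 (log2 fold change -0.73, adjusted p = 0.019). The 6 calls of this list became 3 without clone 3, 4 or 5 and 1 without clone 6. These genes were lower in the clones in which Klf6 was higher. Of 5 tested 2-cell markers, 4 were called higher in those clones with limma. Usp17la had 2637 ± 1025 and 10424 ± 403 (SD, n = 3 each, log2 fold change 2.04, adjusted p = 0.0032). The others were Tcstv3 (log2 fold change 2.56, adjusted p = 0.0079), Tcstv1 (2.39, adjusted p = 0.0079) and Zfp352 (1.79, adjusted p = 0.040).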

How the data were processed

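RNA from undifferentiated iPSCs of 6 clones, 1 array each, was labelled with biotin and hybridised to 1-colour Affymetrix Mouse Genome arrays. The authors quantified and deposited MAS 5.0 signal intensities on a linear scale, which share a trimmed mean of 500.0 (2% left out at each end). No depth applies to arrays, and 3 clones per group limit the precision. Each clone is a separate line, and nothing in the sources used here gives scan dates or batches.

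After 64 control probe sets were removed, 45037 remained, of which 34945 name 1 gene, 932 name several and 9160 name no gene. Values were taken as log2(signal + 16), which understates changes of low signals. The brighter part, 22518 probe sets whose mean exceeded the median of all, was fitted on group with limma 3.58.1 (lmFit, eBayes with trend) in R 4.3.3, with Benjamini-Hochberg adjustment over all of them and 95% intervals. The script was tested on simulated data, in which 200 of 22518 probe sets were changed. It recovered 0% of 1.5-fold changes, 58.5% of 2-fold changes and 82.5% of 3-fold changes. These shares hold for the simulated setting only. More probe sets were called in the data, 703 of 22518, among them Fbxo15 at 1.55-fold. Small changes were missed in the simulation, and the absence of a call is not evidence of no change. A gene in a list was represented by its brightest probe set.

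The KLF genes and the lists were chosen with earlier results of these data known. All 8 members are named. Of each other list, up to 4 called genes with the smallest adjusted p are named or, where none was called, the 3 brightest, and the 3 genes most like the member with the smallest adjusted p. Values of Sin3a and Stat3, which the background links to members, were added after the results had been seen. So were those of Fn1 and Eif1a, which are bright in their lists. The results were recomputed with quantile normalization or a common median, testing all probe sets or only those over a mean signal of 500, pseudocounts of 1 and 64, arrayWeights, eBayes with no trend, the methods' t-test, the mean of a gene's probe sets, subtraction of each clone's shift of the gene's chromosome, and leaving out each clone. Sequences and coordinates came from RefSeq (GRCm38.p6). Python 3.11.15 with matplotlib 3.10.9 drew the figures.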

Additional observations from a re-analysis of the deposited data

How the results depend on the processing

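The estimate of Klf6 stayed positive in every alternative run, between 0.76 and 1.02 on the log2 scale, and its adjusted p ranged from 0.0021 (arrayWeights) to 0.19. It passed after quantile normalization, with a common median, with both other pseudocounts, above a mean signal of 500, with the mean of its probe sets and with the chromosome shift subtracted. It did not pass at the same estimate of 0.86 without a filter (adjusted p = 0.058), with eBayes without trend (0.061) or with the methods' t-test after Benjamini-Hochberg (0.19), and leaving out 1 clone gave 0.77 to 1.02. The number of members' probe sets called higher, 3, was 8 with a common median, 9 with arrayWeights, 0 without a filter, 0 without trend, 0 by the methods' t-test after Benjamini-Hochberg and 7 unadjusted, and 0 to 4 with 1 clone left out. The number called lower, 0, was 2 by the unadjusted t-test. By the brightest probe set, the 1 called member became 0 without a filter, without trend and by the adjusted t-test, 2 by the unadjusted t-test and 0 to 1 with 1 clone left out.

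The signs of small estimates were not settled. With a common median Klf2 went from -0.02 to 0.14, Klf4 from -0.04 to 0.12 and Klf13 from -0.15 to 0.00. Klf4 was 0.03 with arrayWeights, and Klf13 was 0.08 as the mean of its probe sets. With 1 clone left out, Klf2 ran from -0.12 to 0.05, Klf3 from -0.10 to 0.23 and Klf4 from -0.09 to 0.04. Klf5 was -0.03 as the mean of its probe sets (adjusted p = 0.94). Klf5, Klf9 and Klf10 kept their sign and did not pass by their brightest probe set in any alternative with an adjusted p. A mean signal above 500 left out Klf13.

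Of the lists, other KLF genes had 1 call in place of 0 after quantile normalization, with a common median, with arrayWeights and by the unadjusted t-test, and Sp factors had 1 under the last 3 of these. Corepressors and coactivators had 1 above a signal of 500, 2 with arrayWeights and 3 by the unadjusted t-test, in place of 0. LIF and ERK inputs had 2 and immediate early genes 2 under both of the latter, in place of 0, and LIF and ERK inputs had 0 to 1 with 1 clone left out. The 1 call among ubiquitin ligases became 0 after quantile normalization, with a common median, without a filter, above 500, without trend, by the adjusted t-test and with the mean of probe sets, and was 0 to 1 with 1 clone left out. In the naive network the 1 call became 3 with a common median, 2 with arrayWeights, 3 by the unadjusted t-test, 0 without trend and by the adjusted t-test, and 0 to 2 with 1 clone left out. Of the 2 calls in the TGF-β list, 1 was left without a filter, above 500, without trend and with the mean of probe sets, 0 by the adjusted t-test and 0 to 2 with 1 clone left out. Above a mean signal of 500, Btrc and Tgfbr2 were too dim to be tested, so their calls could not be kept there. The 6 calls of the fibroblast markers became 2 without trend, 11 with arrayWeights, 0 by the adjusted t-test and 1 to 8 with 1 clone left out. Over all tested probe sets, the 305 higher and 398 lower calls became 917 and 238 with a common median, 101 and 120 without a filter, 87 and 178 without trend, 1015 and 1512 with arrayWeights, 0 and 1 by the adjusted t-test, and 27 and 25 without clone 6. The causes of these changes were not tested. No paired analysis was possible because the groups share no clone numbers.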
